A study of Mus musculus with 16 samples.

Results

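The type 2 vomeronasal receptors *Vmn2r28* to *Vmn2r79* lie on chromosome 7 of the mouse. They were taken as every gene present in both the count and the RPKM tables whose symbol is *Vmn2r* followed only by a number from 28 to 79, which left out symbols marked as pseudogenes. This gave 51 of 24407 genes with counts, 51 of the 126 genes with a *Vmn2r* symbol and 51 of the 343 genes of the *Vmn1r*, *Vmn2r* and *Fpr* receptor families. All 51 had a position on chromosome 7 in GENCODE release M21 (GRCm38), in 5 clusters separated by more than 1 Mb. Cluster 1 was *Vmn2r28* alone. Cluster 2 held the 24 genes *Vmn2r29* to *Vmn2r52* between 7231327 and 10176573, all on the minus strand. Cluster 3 held *Vmn2r53* to *Vmn2r56* (12562851 to 12735004), cluster 4 held 7 genes from *Vmn2r57* to *Vmn2r63* (41395945 to 42933822) and cluster 5 held 15 genes from *Vmn2r65* to *Vmn2r79* (84935565 to 87044941).

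RNA was sequenced from the vomeronasal organ (VNO) of mice from 4 High Runner (HR) lines, bred for high voluntary wheel running (lines 3, 6, 7 and 8), and 4 non-selected Control lines (lines 1, 2, 4 and 5). All lines descend from one outbred Hsd:ICR population, and the mice came from generation 88 and were 12 weeks old. Each line gave 1 male and 1 female library, each from the pooled VNOs of 3 mice, so there were 16 libraries and no repeat of a line within a sex. The lines are the unit of selection, and 4 lines stand for each linetype. In a pool of whole organs, fewer neurons that express a receptor and less receptor RNA per neuron cannot be told apart.

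The VNO is a chemosensory organ at the base of the nasal septum that detects pheromones and other social cues. Its basal vomeronasal sensory neurons (VSNs) express *Vmn2r* receptors, which are G-protein-coupled receptors with a large extracellular domain, and signal through the G protein Gαo, encoded by *Gnao1*. A mature basal VSN typically expresses a single variable *Vmn2r* gene together with a broadly expressed coreceptor of the *Vmn2r1* to *Vmn2r7* group. The variable receptors lie in tandem arrays, and some of them are close copies of each other.

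Many members of cluster 2 have a close copy within the cluster. The coding sequence of a member matched that of its nearest other member with 74.4% to 99.8% identity (median 95.5%), and in cluster 2 the median was 99.0%. More distant pairs of that cluster differ more, such as *Vmn2r31* and *Vmn2r52* with 376 differences. Of the 51 members, 17 had another member at 98% identity or more. RefSeq promoter windows on GRCm38.p6, 300 bases around the start of each gene, were found for 47 members in 48 windows. Among 1128 pairs of windows, 3 were identical: *Vmn2r45* with *Vmn2r34*, *Vmn2r31* with *Vmn2r33*, and *Vmn2r32* with *Vmn2r49*. The coding sequences of these pairs had 27, 25 and 14 differences. The stretches below are shown because the first 2 pairs share them base for base, while the members of each pair had unlike levels over the lines, as described further on. They are 134 bases of the minus strand, 5′ to 3′, outside the annotated transcripts, and capitals mark the letters CCCNNGGG.
Vmn2r45, chr7:8489076-8489209: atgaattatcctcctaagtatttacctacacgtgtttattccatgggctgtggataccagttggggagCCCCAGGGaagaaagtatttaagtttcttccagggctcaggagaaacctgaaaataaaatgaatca
Vmn2r34, chr7:7689515-7689648: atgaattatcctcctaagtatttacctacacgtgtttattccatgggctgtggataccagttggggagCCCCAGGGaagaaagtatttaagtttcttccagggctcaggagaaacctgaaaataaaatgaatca
Vmn2r31, chr7:7399744-7399877: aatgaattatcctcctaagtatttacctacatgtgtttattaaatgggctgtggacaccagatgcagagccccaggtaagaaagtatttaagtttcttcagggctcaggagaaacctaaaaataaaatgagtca
Vmn2r33, chr7:7566903-7567036: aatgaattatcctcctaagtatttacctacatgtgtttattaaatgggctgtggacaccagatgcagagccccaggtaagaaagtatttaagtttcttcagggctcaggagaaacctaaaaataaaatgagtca

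CCCNNGGG, searched on both strands, is the general form of the sequence bound by EBF transcription factors, which are known from olfactory neurons. It was found in 21 of 48 member windows (43.8%) and in 18 of the 23 windows of cluster 2 (78.3%), against 13.7% of all 32851 mouse promoter windows. TATAAA, the core of a TATA box, was in 4 member windows (8.33%) against 13.6% of all windows, and GCCNNNGGC, the general form of an AP-2 site, was in 2 (4.17%) against 16.6%. Members with near-identical promoters are not independent observations of a motif, and these are matches of letters only. In cluster 4, *Vmn2r62* and its close relative *Vmn2r63* had 97.0% identity over the coding sequence. Their upstream stretches of 217 bases differed by 19 edits, marked here in capitals. The leading ATAT of *Vmn2r63* lies beyond the start of the *Vmn2r62* stretch, so these capitals mark where the stretches were cut.
Vmn2r62, chr7:42793530-42793746, minus strand: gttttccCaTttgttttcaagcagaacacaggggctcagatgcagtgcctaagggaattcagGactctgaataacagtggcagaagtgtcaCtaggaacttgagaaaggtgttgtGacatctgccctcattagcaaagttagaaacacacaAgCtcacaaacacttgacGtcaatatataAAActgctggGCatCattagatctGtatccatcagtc
Vmn2r63, chr7:42933823-42934039, minus strand: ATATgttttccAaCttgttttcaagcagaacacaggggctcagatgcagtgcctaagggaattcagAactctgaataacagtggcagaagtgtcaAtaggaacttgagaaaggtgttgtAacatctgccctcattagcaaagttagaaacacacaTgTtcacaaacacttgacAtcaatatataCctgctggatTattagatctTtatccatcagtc

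The authors' alignment was set to accept no mismatch to the reference and only reads with a single location. A lower transcript level and a line's own variants cannot be told apart in such counts. The share of the 75-nt words of a member's transcripts that occur in no other gene had a median of 24.1% in cluster 2, 91.2% in cluster 4 and 98.7% in cluster 5. It was 90% or more for 22 members and under 20% for 10. *Vmn2r47* had no unique word, every one of its words also occurs in the pseudogene *Gm10302*, and yet the count table gives it 61 to 637 counts per library. How the counting assigned those reads is not given in the sources used here.

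Counts on genes ranged from 15998552 to 70875276 per library, with a median of 37366329. *Omp*, the marker of mature olfactory and vomeronasal neurons, had 1267 to 2596 CPM (counts scaled to a common library size by the TMM method) and *Gnao1* 305 to 511 CPM in every library. *Trpc2*, the VSN ion channel, and the haemoglobin genes *Hbb-bs* and *Hba-a1* were listed at 0 counts in all libraries. The summed level of 4 gland genes of the odorant-binding and lipocalin families varied most among the marker lists, from 6070 to 118288 CPM in Control and from 912 to 101114 CPM in HR libraries. Whether this variation of glandular RNA has a part in the results was not tested.

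The members held a steady part of the receptor RNA. Their counts were 20.1% to 24.2% of all receptor counts and 30.5% to 35.2% of all *Vmn2r* counts in the 16 libraries. The share of *Vmn2r* counts was 33.1% ± 1.13 in Control and 32.6% ± 1.59 in HR lines (mean ± SD, n = 4 line means each). The 6 most abundant members together took 40.8% to 45.3% of the members' CPM, and *Vmn2r28* alone took 7.38% to 10.39%. The summed CPM of the members was lower in Control line 4 (1361 in males, 1616 in females) and in HR line 3 (1330 and 1593) than in the other 12 libraries (1798 to 2116).

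Single receptors differed widely in level. On the RPKM scale, which corrects for gene length, *Vmn2r28* was highest in male libraries (64.4 ± 11.5, mean ± SD, n = 8 lines) and *Vmn2r69* in female libraries (70.3 ± 8.38). *Vmn2r28* had 67.7 ± 7.29 in females and *Vmn2r69* 55.6 ± 13.8 in males, so their order within a sex was within the spread of the lines. *Vmn2r73* had 58.3 ± 11.8 in males, where it ranked second, and 66.1 ± 10.56 in females, where it ranked after both. *Vmn2r74* was the next in both sexes (50.7 ± 13.8 and 53.9 ± 10.39). In both sexes 4 members had a mean RPKM of 50 or more, 20 lay between 10 and 50, 15 between 1 and 10 and 12 under 1. The members under 1 RPKM all belonged to cluster 2.

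Of the 6 members with the highest mean log2 CPM, *Vmn2r28* was the one that did not differ among lines after adjustment. *Vmn2r28* had 192, 174, 134 and 149 CPM in males of Control lines 1, 2, 4 and 5 and 166, 170, 165 and 194 CPM in females. In HR lines 3, 6, 7 and 8 it had 124, 208, 168 and 192 CPM in males and 151, 165, 143 and 197 CPM in females. The linetypes overlapped throughout this range. *Vmn2r73* ranged from 102 CPM in the male pool of HR line 3 to 193 CPM in the male pool of Control line 1, and *Vmn2r74* from 89.6 CPM (Control line 4 males) to 189 CPM (HR line 8 males). *Vmn2r69* lay between 91.4 and 205 CPM and *Vmn2r65* between 64.5 and 111 CPM. *Vmn2r30*, the most abundant member of cluster 2, had 44.3 and 53.0 CPM in Control line 4 and 84.1 to 149 CPM elsewhere. At the other end, *Vmn2r46* had at most 3 counts in any library and no RPKM above 0, and *Vmn2r43* had 0 to 17 counts.

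**Figure D1:**
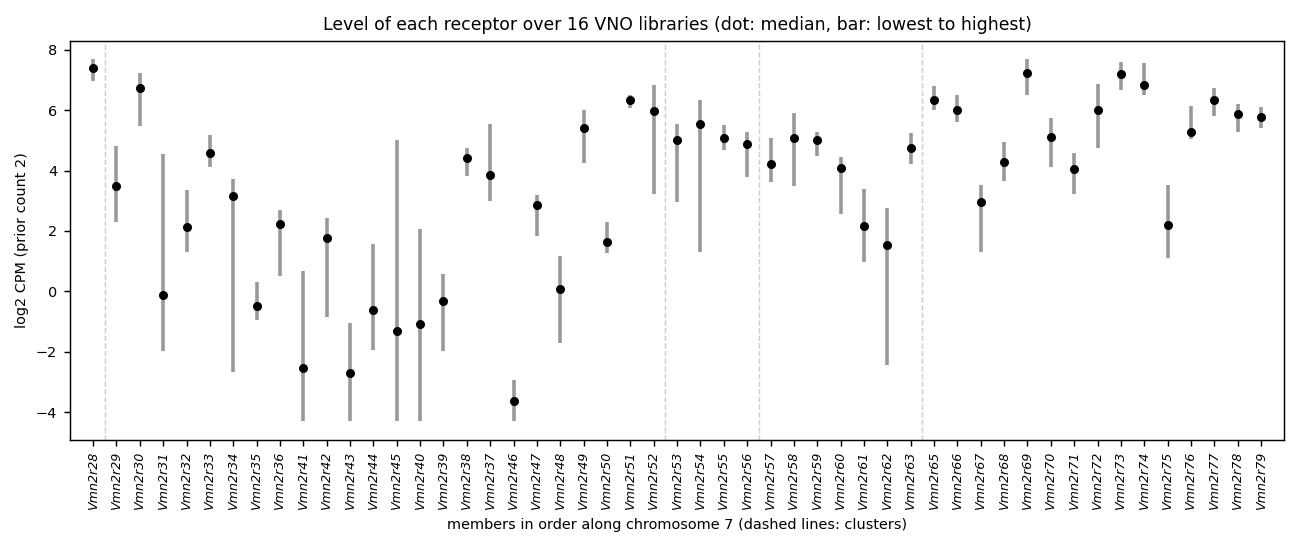
Level of the 51 members in their order along chromosome 7, as log2 CPM with a prior count of 2, where the dot is the median and the bar runs from the lowest to the highest of 16 libraries. Short bars high in the plot mark *Vmn2r28* and most of cluster 5, and the long bars include those of *Vmn2r31*, *Vmn2r34*, *Vmn2r45*, *Vmn2r54* and *Vmn2r62*.

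The 2 deposited units agreed for most members and disagreed for 4. The mean CPM of a gene divided by its mean RPKM gives a length in kilobases. For 46 members this was 2.15 to 4.49 kb in both sexes, with a median of 2.48 kb in males and 2.46 kb in females. *Vmn2r32* gave 12.5 and 15.9 kb, *Vmn2r40* 9.08 and 9.76 kb, *Vmn2r42* 574 and 211 kb and *Vmn2r47* 452 and 725 kb (male and female libraries). The count table thus held reads for these genes that the RPKM table did not. *Vmn2r47* had 61 to 637 counts per library but at most 0.0343 RPKM, and *Vmn2r42* had 8 to 290 counts but at most 0.0399 RPKM. No ratio could be formed for *Vmn2r46*. The counts of these 5 genes are therefore uncertain, and all 5 lie in cluster 2.

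**Figure D2:**
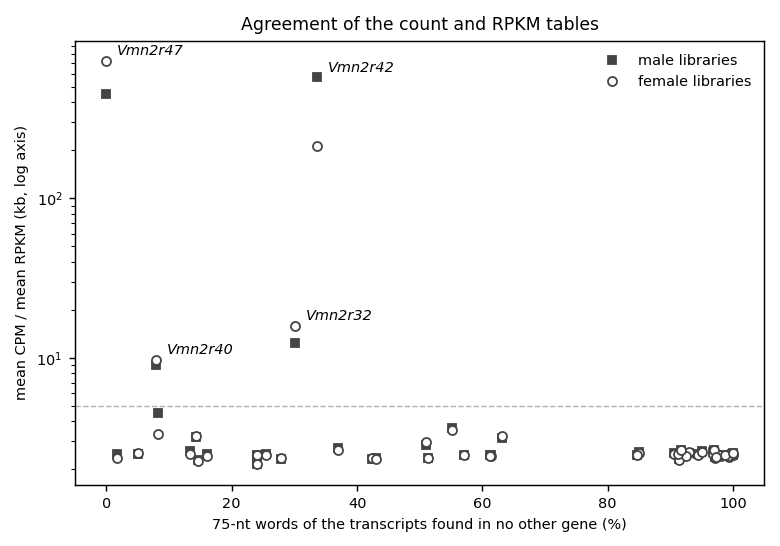
Mean CPM over mean RPKM in kilobases (log axis) for 50 members, against the percentage of 75-nt words found in no other gene, with squares for the 8 male and open circles for the 8 female libraries. The 4 named genes lie above the dashed line at 5 kb, all of them at 33.6% unique words or less, while the other 46 lie between 2.15 and 4.49 kb at any uniqueness.

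Levels differed among lines for most members. Of 50 members tested for differences among lines of the same linetype, 39 passed an adjusted *p* of 0.05 in edgeR's quasi-likelihood test, against 27.7% of all 17181 genes tested. This was not particular to the members: 7 of the 10 genes *Vmn2r8* to *Vmn2r17* and 23 of 30 genes from *Vmn2r90* to *Vmn2r120* also passed. At an unadjusted *p* of 0.05 there were 43 members, against 43.9% of all genes. All members of clusters 3, 4 and 5 passed, and in cluster 2 there were 13 of 23 tested. Those not called were *Vmn2r28*, *Vmn2r33*, *Vmn2r35*, *Vmn2r36*, *Vmn2r39*, *Vmn2r42*, *Vmn2r43*, *Vmn2r47*, *Vmn2r48*, *Vmn2r50* and *Vmn2r51*. All 22 members with at least 90% unique words passed, as did 17 of the 28 tested members below that. The ratio of the highest to the lowest line mean had a median of 2.43 over the members and 1.49 over all genes tested. Its median was larger over *Vmn2r8* to *Vmn2r17* (7.21) and over *Vmn2r90* to *Vmn2r120* (4.34). The ratio exceeded 5 for 11 of the 50 members, 8 of them in cluster 2, and in cluster 5 its median was 1.81. Over all 17181 genes tested, the ratio exceeded 5 for 1294. In the other arrays it did so for 7 of 10 and for 15 of 30 genes, so such ratios were not particular to the members. The test has only a male and a female pool behind each line, and their spread is its measure of error.

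Control line 4 stood at an end of the range for 29 of the 50 members. It was the highest line for 11 members, all in cluster 2, and the lowest for 18, of which 7 were in cluster 2 and 3 in cluster 3. Over all genes tested it was highest for 11.9% and lowest for 13.8%. It was lowest for 40% of *Vmn2r8* to *Vmn2r17* and 33.3% of *Vmn2r90* to *Vmn2r120*, where the members had 36%. It was highest for 0% and 10% of these arrays, where the members had 22%. The low side of Control line 4 was thus not particular to the members. HR line 3 was lowest for 15 members (30%), 9 of them in cluster 5, and highest for none, against 13.6% and 12.7% of all genes. HR line 8 was highest for 11 members (22%), 8 of them in cluster 5, against 16.5% of all genes. In *Vmn2r8* to *Vmn2r17* and *Vmn2r90* to *Vmn2r120*, HR line 3 was lowest for 30% and 23.3% and highest for 0% and 3.33%. HR line 8 was highest for 0% and 26.7% of these arrays. The low side of HR line 3 was thus not particular to the members either. Since the summed CPM was low in Control line 4 and HR line 3, the levels were also scaled to the summed receptor counts of each library (CPM of receptor counts). Control line 4 was then highest for 15 members, 14 of them in cluster 2, and lowest for 10, HR line 3 was lowest for 7, and HR line 8 was highest for 7. The median ratio of highest to lowest line was 2.18 on that scale. Shares over all genes and over the other arrays were not counted on it. Control line 4 was thus the line that was highest for the most cluster 2 members on both scales.

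**Figure D3:**
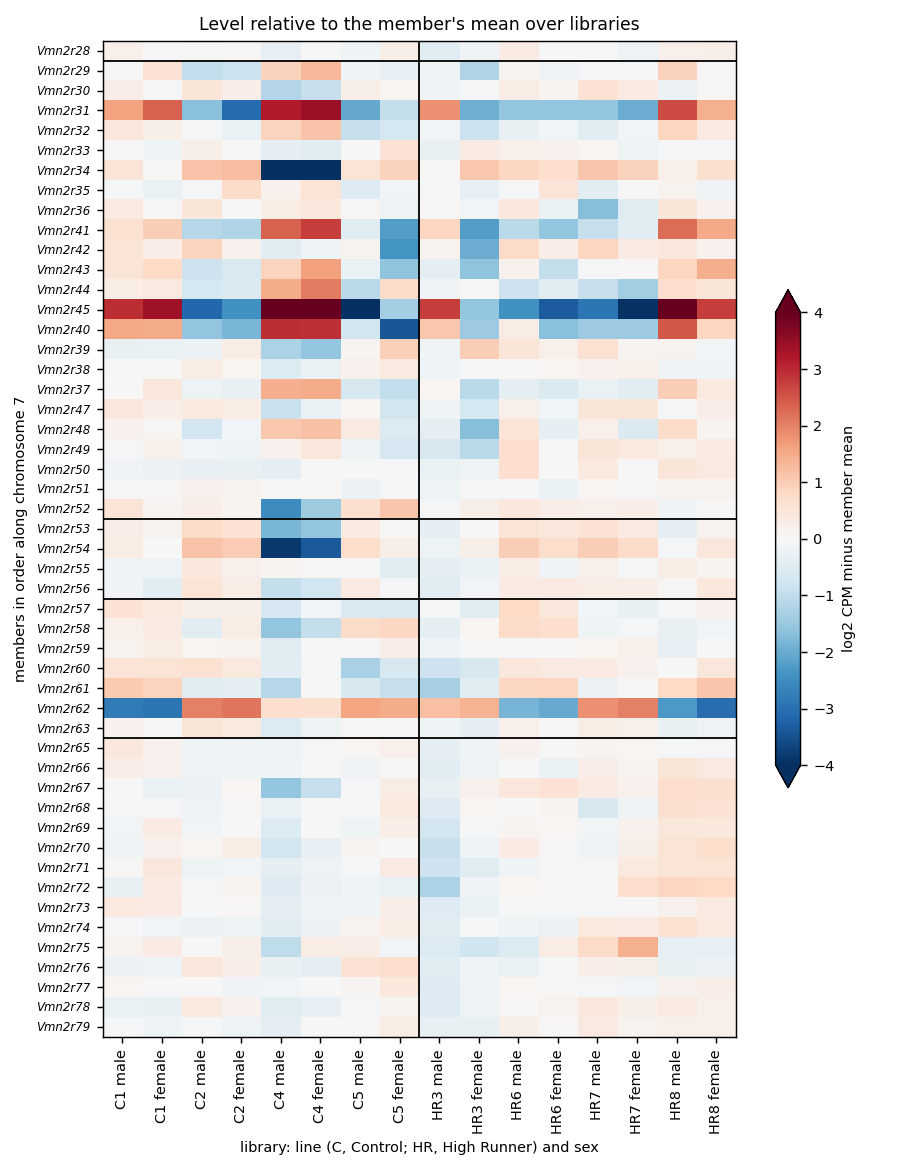
Log2 CPM of 50 members minus each member's mean over 16 libraries, with rows in order along chromosome 7, black lines between clusters, Control libraries left and HR libraries right of the vertical line. *Vmn2r31*, *Vmn2r40*, *Vmn2r41* and *Vmn2r45* are high (red) in Control lines 4 and 1, HR line 8 and the male pool of HR line 3, *Vmn2r34* and *Vmn2r54* are low (blue) in Control line 4, and *Vmn2r62* is low in Control line 1 and HR lines 6 and 8.

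*Vmn2r45* had the widest range in cluster 2. It is one of the receptors the study singled out on these same libraries, so its choice is not independent of them. In males it had 8.47, 0.0746, 29.8 and 0 CPM in Control lines 1, 2, 4 and 5, and in females 11.5, 0.155, 32.1 and 0.383 CPM. In HR lines 3, 6, 7 and 8 it had 7.45, 0.155, 0.0973 and 17.5 CPM in males and 0.330, 0.0596, 0.0211 and 7.43 CPM in females. Both linetypes thus held libraries with 276 counts or more, up to 1268 in the female pool of Control line 4, and libraries with 9 counts or fewer. The lines differed with an adjusted *p* of 0.00141 in edgeR's quasi-likelihood test.

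Control line 4 was also the highest line for *Vmn2r31*, *Vmn2r37*, *Vmn2r40*, *Vmn2r41* and *Vmn2r44*, which are named here after their values were seen. Whether their profiles over the lines differ from that of *Vmn2r45* was not tested. *Vmn2r31* had 19.4 and 23.6 CPM in the male and female pools of Control line 4, 6.59 and 11.1 in Control line 1, 13.3 and 5.81 in HR line 8 and 7.75 and 0.514 in HR line 3. In Control lines 2 and 5 and HR lines 6 and 7 it lay between 0.206 and 1.08 CPM. The adjusted *p* among lines was 0.00501 for *Vmn2r31*, 0.00340 for *Vmn2r40*, 0.00994 for *Vmn2r41* and 0.00256 for *Vmn2r37* in edgeR's quasi-likelihood test. *Vmn2r40* reached 4.16 and 4.07 CPM in Control line 4 and *Vmn2r41* 1.16 and 1.54 CPM, with nearly identical coding sequences (6 differences), so their counts cannot be assigned with certainty. *Vmn2r37* had 46.0 and 47.0 CPM in Control line 4 and 7.93 to 33.6 CPM elsewhere. *Vmn2r44*, which has 19 differences from *Vmn2r31* over the coding sequence, had 1.89 and 2.88 CPM in Control line 4 and 0.211 to 1.08 CPM in the other libraries. *Vmn2r31* and *Vmn2r45* have 199 differences over the coding sequence.

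*Vmn2r34* showed the reverse in Control line 4. With the same promoter window as *Vmn2r45*, it had 0.105 and 0.152 CPM in the male and female pools of that line, from 4 and 6 counts. In the other 3 Control lines it had 7.92, 12.3 and 7.997 CPM in males and 5.68, 13.1 and 10.58 CPM in females, and in the HR lines 5.72 to 11.9 CPM. The adjusted *p* among lines was 0.00022 in edgeR's quasi-likelihood test and 0.180 without Control line 4, so the call rested on that line. Of the 75-nt words of *Vmn2r45*, 38.0% also occur in *Vmn2r34*, and of those of *Vmn2r34*, 63.2% occur in *Vmn2r37*. *Vmn2r33*, whose window equals that of *Vmn2r31*, stayed between 17.4 and 35.9 CPM, and its adjusted *p* among lines was 0.201.

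*Vmn2r52*, *Vmn2r53* and *Vmn2r54*, at the edges of clusters 2 and 3 that face each other across a gap of 2386 kb, were also lowest in Control line 4. *Vmn2r54* had 2.42 and 3.52 CPM there, against 79.9 and 73.3 in Control line 2, 44.4 and 35.8 in Control line 1, 59.5 and 42.5 in Control line 5 and 31.5 to 72.1 CPM in the HR libraries. Its adjusted *p* was 0.000149 in edgeR's quasi-likelihood test. *Vmn2r53* had 7.79 and 9.31 CPM in Control line 4 and 21.4 to 46.3 CPM in all other libraries (adjusted *p* = 0.000531, the same test). *Vmn2r52*, named after its values were seen, had 9.26 and 19.9 CPM against 49.0 to 115 CPM (adjusted *p* = 0.00301, the same test). *Vmn2r52* and *Vmn2r53* had 97.1% and 91.3% unique words, whereas *Vmn2r54* had 51.3% and shares 39.9% of its words with the overlapping transcript *AC139131.1*. *Vmn2r55* and *Vmn2r56*, the other members of cluster 3, had 34.9 to 36.4 and 13.7 to 15.5 CPM in Control line 4, so *Vmn2r55* was not low there.

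*Vmn2r62* of cluster 4 had the smallest *p* among lines of all members. Control line 1 (0.170 and 0.153 CPM), HR line 6 (0.372 and 0.328) and HR line 8 (0.259 and 0.135) were near 0, with 5 to 12 counts per library. Control line 2 had 6.15 and 6.65 CPM, Control line 4 had 2.37 and 2.33, Control line 5 had 4.57 and 4.21, HR line 3 had 3.47 and 4.00 and HR line 7 had 5.45 and 6.13. The male and the female pool of each line agreed closely, no line lay between 0.372 and 2.33 CPM, and the adjusted *p* was 2.81e-06 in edgeR's quasi-likelihood test. Its relative *Vmn2r63*, for which 91.2% of words were unique against 27.9% for *Vmn2r62*, had 18.4 to 37.9 CPM. This low line set differs from that of *Vmn2r45*, since Control line 1 and HR line 8 were high for *Vmn2r45*.

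*Vmn2r58*, also in cluster 4, had 38.8, 25.0, 11.2 and 56.1 CPM in males of Control lines 1, 2, 4 and 5 and 41.6, 41.1, 17.1 and 59.8 CPM in females. In HR lines 3, 6, 7 and 8 it had 26.3, 56.9, 29.9 and 27.0 CPM in males and 35.3, 53.4, 32.6 and 30.7 CPM in females. Control line 5 and HR line 6 were the high lines and Control line 4 was the low line, with an adjusted *p* of 0.000547 in edgeR's quasi-likelihood test. Of its words, 92.9% were unique.

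In cluster 5, where sequence is mostly unique, the ratio of the highest to the lowest line mean ran from 1.47 (*Vmn2r79*) to 3.62 (*Vmn2r67*). *Vmn2r67* ranged from a line mean of 3.08 CPM in Control line 4 to 11.2 CPM in HR line 8, and *Vmn2r75* from 2.70 CPM in HR line 3 to 9.40 CPM in HR line 7. *Vmn2r72* ranged from 43.1 CPM in HR line 3 to 114 CPM in HR line 8. *Vmn2r76* had 65.8 and 71.1 CPM in Control line 5, 61.2 and 53.5 in Control line 2 and 52.7 and 52.3 in HR line 7, and 32.7 to 42.7 CPM in the other 5 lines. Its adjusted *p* among lines was 0.0008 in edgeR's quasi-likelihood test. *Vmn2r71* had 23.7 and 24.0 CPM in HR line 8 and 9.27 and 11.9 CPM in HR line 3, with 12.5 to 22.8 CPM elsewhere (adjusted *p* = 0.00135, the same test). *Vmn2r71* overlaps *Vmn2r70* on the opposite strand. The libraries were directional, but whether the counting used the strand is not given in the sources used here.

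**Figure D4:**
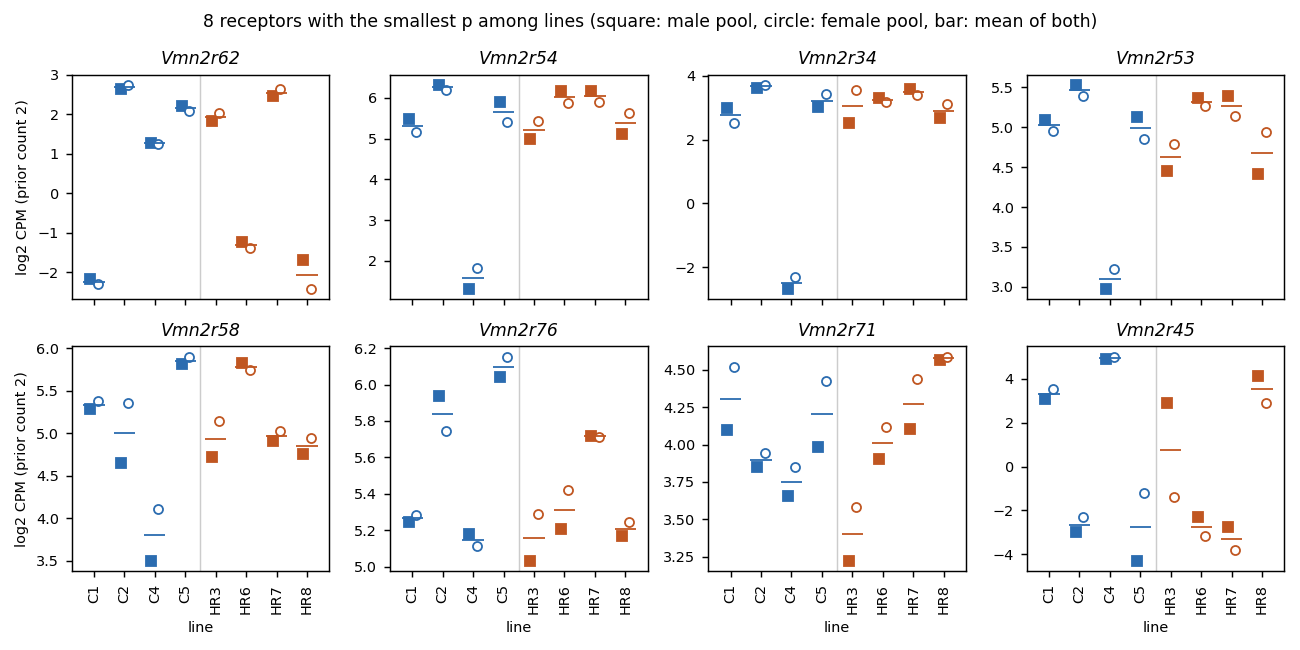
Log2 CPM (prior count 2) of the 8 members with the smallest *p* among lines, with Control lines in blue and HR lines in orange, a square for the male and an open circle for the female pool and a bar for their mean. *Vmn2r62* falls into high and low lines within both linetypes, *Vmn2r54*, *Vmn2r34* and *Vmn2r53* are low in Control line 4 alone, and the male and female pools of HR line 3 lie apart for *Vmn2r45*.

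The male and female pools of a line resembled each other over the members, except in HR line 3. After linetype and sex means were removed, the deviations of the pools from one line had a correlation of 0.758 to 0.969 over 49 members in the other 7 lines and 0.239 in HR line 3. Over 16507 genes the same correlation was 0.595 in HR line 3, within the 0.321 to 0.708 of all lines. Members are not independent replicates, and both pools of a line differ in sex and may differ in sequencing run. In HR line 3, 11 of 49 members differed more than 2-fold between the pools, 8 of them higher in males, against 0 to 6 members in the other lines. The line with 6 was Control line 5, and the share of all genes that differed so was not counted. *Gng13*, a mature VSN marker that is not a member, had 20.5 and 1.51 CPM in the male and female pools of HR line 3. The same gene had 35.7 and 2.30 CPM in those of Control line 5, so its gap was not particular to HR line 3. *Omp* had 2018 and 1267 CPM in Control line 5 and 1615 and 1597 CPM in HR line 3. *Vmn2r45* had 315 counts in the male and 9 in the female pool of that line, and *Vmn2r31* had 328 and 14. With 3 mice per pool, a difference between individual mice cannot be told apart from a difference between sexes or between libraries within the line.

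No member differed between HR and Control lines after adjustment. Of 49 members tested, 0 passed an adjusted *p* of 0.05 in edgeR's quasi-likelihood test, against 0.0242% of all 16507 genes (4 genes). At an unadjusted *p* of 0.05 there were 2 members, against 3.3% of all genes, and DESeq2 gave 0 and 2. These tests took the male and the female pool of a line as separate samples. With the counts of both pools summed per line, 0 members had an unadjusted *p* under 0.05 in edgeR's quasi-likelihood test, against 1.21% of all genes. The log2 fold changes of HR over Control were above 0 for 28 members, against 51.1% of all genes, and below 0 for 21. This split was 25 to 24 with scaling to receptor counts and 23 to 26 without Control line 4, HR line 6 or HR line 8. The changes ranged from −1.53 to 0.62, with a median of 0.018 over the members and 0.0025 over all genes, and a median standard error of 0.22. The median size of the change, regardless of sign, was 0.15 for the members and 0.065 for all genes. For 0 of 49 members did the 4 HR line means lie entirely above or below the 4 Control line means, against 0.8% of all genes.

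The smallest *p* belonged to *Vmn2r67* of cluster 5. It had 2.42 (lowest), 6.34 (median) and 8.74 (highest) CPM in the 8 Control libraries and 5.72, 9.35 and 11.4 CPM in the 8 HR libraries. The ranges overlapped, and Control line 4 held the lowest values. The log2 fold change was 0.62 ± 0.22 (SE) with an adjusted *p* of 0.9997 in edgeR's quasi-likelihood test (unadjusted 0.0124), and 0.40 without Control line 4. Permuting the 8 line means exactly, two-sided, gave *p* = 0.0571 (adjusted 0.343 over 6 members tested so, where 4 against 4 lines allow no *p* under 0.0286). *Vmn2r50* of cluster 2 had 2.34, 2.69 and 3.06 CPM in Control and 2.55, 3.51 and 4.87 CPM in HR libraries. Its log2 fold change was 0.38 ± 0.14, with an unadjusted *p* of 0.0172 in edgeR's quasi-likelihood test (exact permutation *p* = 0.114). With both pools summed per line, the unadjusted *p* in edgeR's test was 0.0529 for *Vmn2r67* and 0.067 for *Vmn2r50*.

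The other 4 members with the smallest *p* had larger spreads or smaller changes. *Vmn2r44* had 0.276, 0.813 and 2.88 CPM (lowest, median, highest) in Control and 0.211, 0.507 and 1.04 CPM in HR libraries, with a log2 fold change of −0.92 ± 0.48. *Vmn2r72* had 44.9, 56.0 and 81.7 CPM in Control and 26.9, 67.7 and 116 CPM in HR libraries (0.37 ± 0.22). *Vmn2r76* had 34.6, 46.2 and 71.1 CPM against 32.7, 38.5 and 52.7 CPM (−0.27 ± 0.17). *Vmn2r39* had 0.202, 0.573 and 1.40 CPM against 0.615, 0.790 and 1.43 CPM (0.51 ± 0.32). Leaving out 1 line brought *Vmn2r44* to −0.15 (without Control line 4), *Vmn2r72* to 0.11 (without HR line 8), *Vmn2r76* to −0.08 (without Control line 5) and *Vmn2r39* to 0.23 (without Control line 4). The linetypes overlapped in all 4, and the exact permutation *p* was 0.257 or above in each.

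*Vmn2r45* had means over both pools of 9.97, 0.115, 30.9 and 0.191 CPM in Control lines 1, 2, 4 and 5 (SD 14.5, n = 4 lines) and of 3.89, 0.107, 0.0592 and 12.5 CPM in HR lines 3, 6, 7 and 8 (SD 5.83, n = 4 lines). High and low lines occurred in both linetypes, which overlapped. The log2 fold change was −1.53 ± 1.39 with an unadjusted *p* of 0.287 in edgeR's quasi-likelihood test. It was −0.03 without Control line 4 and −3.49 without HR line 8, so its size rested on which of the high lines was kept. Leaving out HR line 3 raised the number of members with an unadjusted *p* under 0.05 from 2 to 8, all 8 higher in HR, and none passed after adjustment. The share over all genes rose with it, from 3.3% to 9.39%.

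**Figure D5:**
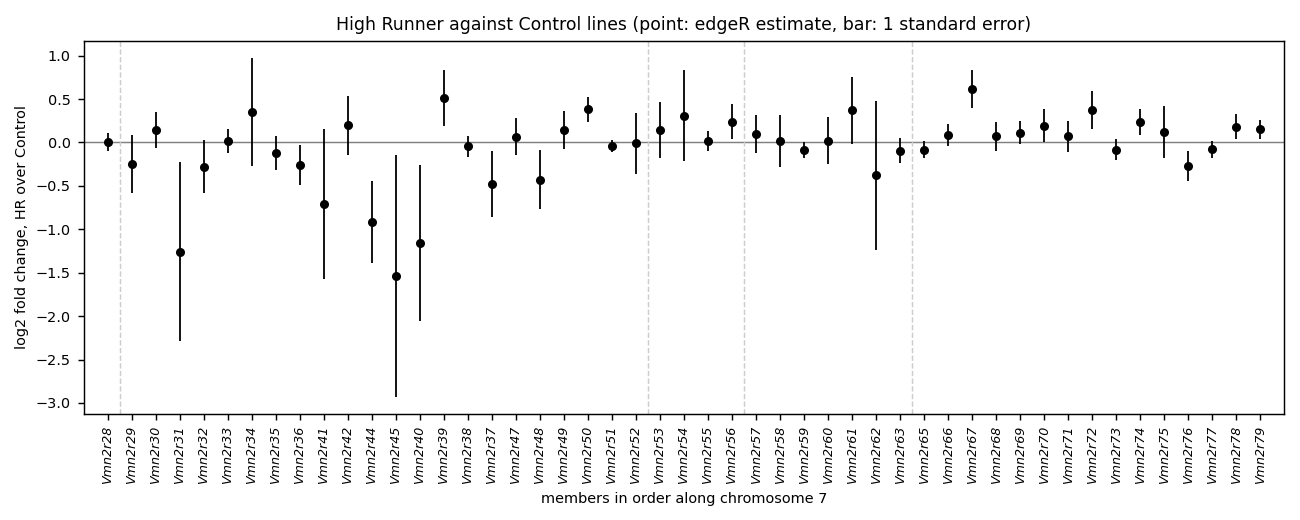
Log2 fold change of HR over Control for the 49 members tested, in order along chromosome 7, with the edgeR estimate as a point and 1 standard error as a bar. The values lie between −1.53 (*Vmn2r45*) and 0.62 (*Vmn2r67*), the longest bars are those of *Vmn2r45*, *Vmn2r31*, *Vmn2r40*, *Vmn2r41* and *Vmn2r62*, and no member passed an adjusted *p* of 0.05.

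No member differed between the sexes after adjustment. In edgeR's quasi-likelihood test 0 of 49 members passed an adjusted *p* of 0.05, against 0.188% of all genes, and 0 had an unadjusted *p* under 0.05, against 8.08%, while DESeq2 gave 0 and 1. With line as a replicate block, 0 of 50 members passed after adjustment, against 0.506% of all genes, and 10 had an unadjusted *p* under 0.05, against 16.4%. *Vmn2r69* had 91.4, 138 and 205 CPM (lowest, median, highest) in male and 147, 164 and 201 CPM in female libraries, with a log2 fold change of female over male of 0.28 ± 0.13. *Vmn2r59* had 22.5, 31.2 and 34.7 CPM in male and 29.8, 33.5 and 38.6 CPM in female libraries (0.19 ± 0.09). In the blocked test the adjusted *p* was 0.132 for *Vmn2r69* and 0.135 for *Vmn2r59* by edgeR's quasi-likelihood test. The smallest *p* in that test was that of *Vmn2r71* (0.26 ± 0.06, adjusted *p* = 0.0886). The tables hold 8 libraries of 1 sex each and the study placed 8 libraries, 1 from each line, in a lane, so sex and lane may coincide.

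The interaction of sex and linetype gave 0 of 49 members, and 0 of 16757 genes (0%), at an adjusted *p* of 0.05 in edgeR's quasi-likelihood test. At an unadjusted *p* of 0.05 there were 0 members, against 0.46% of all genes, and DESeq2 also gave 0 and 0. With the line block, 0 of 50 members passed (0% of all genes) and 6 had an unadjusted *p* under 0.05, against 2.1% of all genes.

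Other genes of basal VSNs gave a setting for these values. Of a list of 34 genes of the basal signalling pathway, 33 were tested, and 0 passed between HR and Control and 0 between the sexes, while 24 differed among lines, all in edgeR's quasi-likelihood test with adjusted *p* under 0.05. Over all genes 27.7% differed among lines in that test, which is also the share to set beside the marker counts below. *Gnao1* had a log2 fold change of HR over Control of 0.07 ± 0.10 and the coreceptor *Vmn2r1* of 0.01 ± 0.17. *H2-M1*, one of the nonclassical major histocompatibility genes expressed with *Vmn2r* receptors, had −0.82 ± 0.35 and did not pass. None of the marker genes tested passed between HR and Control or between the sexes. Among lines, 1 of 2 marker genes passed for mature VSNs, 2 of 3 for basal neurons, 1 of 4 for apical neurons, 3 of 4 for main olfactory neurons, 1 of 5 for immature neurons, 1 of 5 for supporting epithelium, 2 of 2 for blood and immune cells, 1 of 3 for cartilage and bone and 4 of 4 for glands. Of the other *Vmn2r* arrays, 6 of the 10 genes *Vmn2r8* to *Vmn2r17* and 8 of 30 genes from *Vmn2r90* to *Vmn2r120* had an unadjusted *p* under 0.05 between HR and Control. The members had 2 of 49, and the share over all genes was 3.3%. After adjustment 0 genes of either array passed, with a smallest adjusted *p* of 0.145 and 0.110 in edgeR's quasi-likelihood test. The median size of the log2 fold change was 1.26 and 0.27 in these arrays and 0.15 in the members. Some of these genes are among those the study singled out on the same libraries, and the difference between arrays was not tested.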

How the data were processed

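VNO RNA of 16 pools (8 lines, male and female) was analysed from the tables the authors deposited. The authors aligned reads with STAR 2.6.1d, keeping reads with a single location and no mismatch, and deposited counts per gene. The authors also deposited RPKM values, made with Cufflinks separately for each sex, which were used here for levels and, as log2 with a pseudocount of 1 or 0.1, for an alternative test with limma. The counting tool, its annotation and its strand setting are not given in the sources used here. Duplicate entries (4 in each table) and 4 summary entries of the counts were left out. Counts were fitted over all genes with edgeR 4.0.16 (R 4.3.3) by the quasi-likelihood test, with TMM scaling, a minimum count of 10 in filterByExpr and Benjamini-Hochberg adjustment at 0.05, for HR against Control, lines within linetype, sex and their interaction. DESeq2 1.42.0 and limma 3.58.1 served as alternatives. Depth was 15998552 to 70875276 counts. The main fits for HR against Control, sex and the interaction held no line term. They took the male and the female pool of a line as separate samples, although such pools shared deviations. The fit for lines took the spread between the male and the female pool of a line as its error. Members, lists and tests were chosen with earlier results of these data known.

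Genes were described per library by a rule: *Vmn2r45*, the 6 members with the highest mean log2 CPM, the 6 with the smallest *p* for HR against Control, the 8 with the smallest *p* among lines and the 2 with the smallest *p* for sex, while members with 3 counts or fewer in every library were only named. Pools of a line shared deviations over 16507 genes (correlation 0.321 to 0.708), so line numbers pair the sexes. On simulated counts for 16507 genes, 95% of 100 genes changed 2-fold were called for HR against Control (8 unchanged genes called), 68% for lines (15), 93% for sex (6) and 66% for the interaction (6). The simulated spread was that left after line differences were fitted, and unchanged genes had the same mean in every line. In the real data 27.7% of genes differed among lines. The shares for HR against Control, sex and the interaction are therefore not the power of those tests in the real data, for any gene. The members' median standard error for HR against Control, 0.22, was larger than the 0.11 of all genes, so none of these shares carries over to the members.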

Additional observations from a re-analysis of the deposited data

Results flagged for a closer look

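Among 80 groups of 4 libraries, over 20 members, 4 held a library far from the other 3, and chance alone gives about 1 in 20 such groups. *Vmn2r28* had 194 CPM in the female pool of Control line 5, where the other 3 Control female pools had 165 to 170 CPM. *Vmn2r45* had 7.43 CPM in the female pool of HR line 8, against 0.0211 to 0.330 CPM in the other HR female pools. *Vmn2r58* had 56.9 CPM in the male pool of HR line 6, against 26.3 to 29.9 CPM in the other HR male pools. *Vmn2r69* had 104 CPM in the male pool of Control line 4, against 135 to 140 CPM in the other Control male pools.

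Of 20 members examined, 1 had female minus male differences of opposite sign in all Control and all HR lines, and this choice fixes the permutation result below. The difference for *Vmn2r45* averaged 1.09 in Control and −1.87 in HR lines on the log2 CPM scale, a difference of −2.96. An exact permutation test over the 8 lines gave *p* = 0.0286, the smallest it can give. In edgeR's quasi-likelihood test of the interaction over all genes the unadjusted *p* was 0.494, and with the line block it was 0.0056, which did not pass adjustment. Control line 5 had 0 male and 6 female counts and HR line 7 had 4 and 1, so part of these differences rests on very few counts.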

How the results depend on the processing

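The direction of the change for HR against Control was followed for *Vmn2r39*, *Vmn2r44*, *Vmn2r45*, *Vmn2r50*, *Vmn2r67*, *Vmn2r72* and *Vmn2r76*. That for sex was followed for *Vmn2r59* and *Vmn2r69*. None of these changes reversed under the alternatives. The directions of the other named genes were not followed. The split of members into higher and lower in HR, 28 to 21, had more lower than higher members under 5 of 20 alternatives (23 to 32 higher). That of sex, 24 to 25, had more higher members under 7 of 15 (21 to 30 higher). The number of members called stayed at 0 for HR against Control under 20 alternatives, for sex under 15 and for the interaction under 13, and was 30 to 41 among lines under 14. *Vmn2r34* lost its call among lines without Control line 4 (adjusted *p* = 0.18). With line as a replicate block, 0 members were called for sex, the interaction and HR against Control, so the block changed no member's call. Leaving out 1 line moved the *Vmn2r45* change of HR over Control between −3.49 and −0.03. Over all genes, DESeq2 called 30 for HR against Control, 7307 among lines and 180 for sex, where edgeR called 4, 4757 and 31. Leaving out 1 line gave 1 to 17 for HR against Control, 3065 to 4967 among lines and 13 to 25 for sex, with 17 and 3065 reached without Control line 2. HR against Control gave 0 genes with line sums, with the voom block, in males only and in females only. The block gave 87 for sex, scaling to receptor counts 7118 among lines and 9 for sex, and no filter 19 for sex. Of the 39 members called among lines, 22 were called in every fit that left out a line or library. Fits without 1 library of HR line 3 were chosen after seeing the data and assume that the remaining library varies like the others. Low counts limit *Vmn2r41*, *Vmn2r43* and *Vmn2r46* most, whose median levels were 0.122, 0.101 and 0.0304 CPM. Of their 75-nt words, 13.4%, 8.29% and 3.27% were unique.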
